A study of Aspergillus nidulans and Aspergillus wentii with 48 samples.

Results

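The transcriptomes of *Aspergillus nidulans* lacking *gfdB*, which encodes a glycerol-3-phosphate dehydrogenase, were compared between NaCl and sorbitol treatment. The comparison holds 6 of the 48 RNA-seq libraries of the series, the 3 titled DgfdB NaCl and the 3 titled DgfdB sorbitol, and was made across all genes with enough reads. The deletion strain, written DgfdB in the titles and Δ*gfdB* here, has the genotype pyrG89; ΔgfdB::AfupyrG+; pyroA+; veA+, so the deleted gene is replaced by the *pyrG* marker of *A. fumigatus*. The reference strain THS30 has pyrG89, AfupyrG+; pyroA+; veA+ and therefore also carries that marker. Cultures were grown in Barratt's minimal broth at 25 °C and 220 rpm for 38 h (Δ*gfdB*) or 36 h (THS30). The mycelium was then washed and moved to fresh broth with 2 M sorbitol, with 1 M NaCl, with both together, or with neither (untreated), and was taken after 0.5 h. Each group has 3 libraries, which the study describes as biological replicates. The question was which genes respond differently to an ionic and to a non-ionic osmolyte when *gfdB* is absent. A single concentration of each was used, so the kind of osmolyte and its dose cannot be told apart.

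In filamentous fungi, as in yeast, high osmolarity is sensed through a phosphorelay that passes from histidine kinases over the phosphotransfer protein YpdA to the response regulator SskA, and on to the SskB, PbsA and HogA kinases of the HOG (high osmolarity glycerol) pathway. The cells then accumulate glycerol and other polyols, which balance the outside solute. Sorbitol withdraws water without adding ions, while NaCl also loads the cytoplasm with sodium. Glycerol is made either from dihydroxyacetone phosphate through glycerol 3-phosphate, the step of GfdA and GfdB, or from dihydroxyacetone through NADP-dependent glycerol dehydrogenases such as GldB.

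The deleted gene had 0 to 2 reads in each of the 6 libraries, against at least 71 in each THS30 library. The genotype field of these samples names a *sodB* mutant where the titles name Δ*gfdB*, and *sodB*, a superoxide dismutase gene, was read at 410.3 to 455 RPKM under sorbitol and 668 to 791 RPKM under NaCl, so the titles were followed. RPKM stands for reads per kilobase of gene, divided by library size, here after TMM correction of that size. The sorbitol libraries held 11438978 to 22042699 reads and the NaCl libraries 13709387 to 18800661. Within each of these groups the libraries correlated at r = 0.990 to 0.993 across genes (log2 CPM). Untreated Δ*gfdB* was more scattered (lowest r = 0.973), with replicate 1 apart from the others, and its levels are given below only as ranges.

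Of 9498 genes tested, 900 were higher under NaCl than under sorbitol in Δ*gfdB* and 634 were lower. A gene was called when its difference exceeded 2-fold and passed edgeR's quasi-likelihood test at an adjusted p under 0.05. These are 9.48% and 6.68% of all genes tested, the shares against which the counts of each gene list are to be read. The 3 NaCl libraries did not overlap the 3 sorbitol libraries for 892 of the 900 genes and for 621 of the 634, against 32.1% of all genes with NaCl above and 30.3% with NaCl below. The split depends on the scaling. Without TMM the median of all genes moved from −0.01 to −0.15 on the log2 scale, and the calls were 710 higher and 899 lower, so that 44.1% of calls instead of 58.7% were higher under NaCl. Against the untreated cultures of the strain, 3407 genes (35.9%) were called under NaCl and 2797 (29.4%) under sorbitol.

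Of 14 tested genes of HOG signalling, 2 were called higher under NaCl and 2 lower (median 0.15, against −0.01 over all genes tested), shares near those of all genes. *hogA*, the terminal MAP kinase gene, had 432, 484 and 441 RPKM in the sorbitol libraries and 1362, 1360.3 and 1482 RPKM in the NaCl libraries. All NaCl libraries lay above all sorbitol libraries (log2 fold change 1.63, SE 0.16, adjusted p = 1.79e-08). The response regulator gene *sskA* had 141, 131 and 146 RPKM in the sorbitol libraries and 50.1, 43.1 and 37.5 RPKM in the NaCl libraries. Here the order was turned, with the groups again apart (log2 fold change −1.68, SE 0.17, adjusted p = 3.00e-08). The untreated cultures had 35.2 to 58.2 RPKM of *sskA* and those under NaCl and sorbitol together 120.2 to 135.3 RPKM. The levels under NaCl alone therefore overlapped the untreated ones, and those of the combination overlapped those of sorbitol alone. The gene of the phosphotransfer protein, *ypdA*, was higher under NaCl by 1.13, and *msnA*, a zinc finger transcription factor gene, was lower at −1.01. The calls of *ypdA* and *msnA* sit close to the 2-fold limit. That of *ypdA* was lost without TMM (0.99), and that of *msnA* without sorbitol replicate 3 (−0.85), without NaCl replicate 1 (−0.86), with DESeq2 and with median-of-ratios scaling (both −0.99). At any fold, 6 of the 14 genes were higher under NaCl with an adjusted p under 0.05 and 5 were lower, those called included. The shares of all genes are 28.3% and 26.2%. Among the members that passed under 2-fold, the kinase genes *sskB* (0.69) and *pbsA* (0.86) and the phosphatase gene *ptpA* (0.94) were higher. The histidine kinase genes *tcsB* (−0.63) and *nikA* (−0.39) were among those lower.

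Of 9 glycerol genes tested besides the deleted one, 3 were called higher under NaCl and 1 lower, with a median of 0.71. *akr1* (AN7193), which the study annotates as a putative NADP-dependent glycerol dehydrogenase gene, had 41.5, 48.7 and 53.8 RPKM in the sorbitol libraries and 179, 187 and 179 RPKM in the NaCl libraries. The untreated level of 62.5 to 98.2 RPKM lay between these groups, which did not overlap (log2 fold change 1.91, SE 0.15, adjusted p = 1.72e-09). *gldB*, coding for a glycerol dehydrogenase of the osmotic response, had 582, 649 and 548 RPKM in the sorbitol libraries and 1424, 1436 and 1638 RPKM in the NaCl libraries. Both stressors lay above the untreated cultures (124 to 233.1 RPKM), with NaCl the higher (log2 fold change 1.34, SE 0.16, adjusted p = 3.02e-07). The glycerol kinase gene *gcnA* was higher by 1.10, and its call was lost without TMM (0.96). The remaining glycerol-3-phosphate dehydrogenase gene, *gfdA*, had 65.6, 75.6 and 75.9 RPKM in the sorbitol libraries and 115, 115 and 116.1 RPKM in the NaCl libraries, a difference that passed the test under 2-fold (log2 fold change 0.67, SE 0.13, adjusted p = 9.81e-05). The gene called lower was AN2864 (−1.09), annotated by the study from orthologues that carry glycerol 3-phosphate across membranes, and without NaCl replicate 1 it had −0.95 and was not called.

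Trehalose is a storage sugar and a stress protectant. Of 6 tested trehalose genes 3 were called higher under NaCl and none lower, with a median of 1.13. *treB*, the neutral trehalase gene, had 90.4, 97.9 and 96.5 RPKM in the sorbitol libraries and 229, 231 and 242 RPKM in the NaCl libraries, without overlap (log2 fold change 1.30, SE 0.11, adjusted p = 2.15e-09). AN8639, which the study names among its trehalose genes, had 132, 153.2 and 142 RPKM in the sorbitol libraries and 592, 568 and 673 RPKM in the NaCl libraries (log2 fold change 2.0995, SE 0.25, adjusted p = 3.86e-07). *ccg9*, named after a trehalose synthase gene of *Neurospora crassa*, was higher by 1.31. The acid trehalase gene *treA* (0.94) and *orlA* (0.95) passed the test below 2-fold, whereas *tpsA*, for trehalose-6-phosphate synthase, had 0.23 and did not pass. The study's wider term for trehalose metabolism, which adds regulators, had 2 of 10 genes called higher, none called lower and a median of 0.79. The study found trehalose metabolism enriched among the genes raised by sorbitol and by NaCl in THS30, so this term is no independent evidence of a direction. Its lowest member was *vosA*, a velvet regulator gene of spores, at −0.73 with an adjusted p under 0.05. Its lowest member was *vosA*, a velvet regulator gene of spores, at −0.73 with an adjusted p under 0.05.

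**Figure D1:**
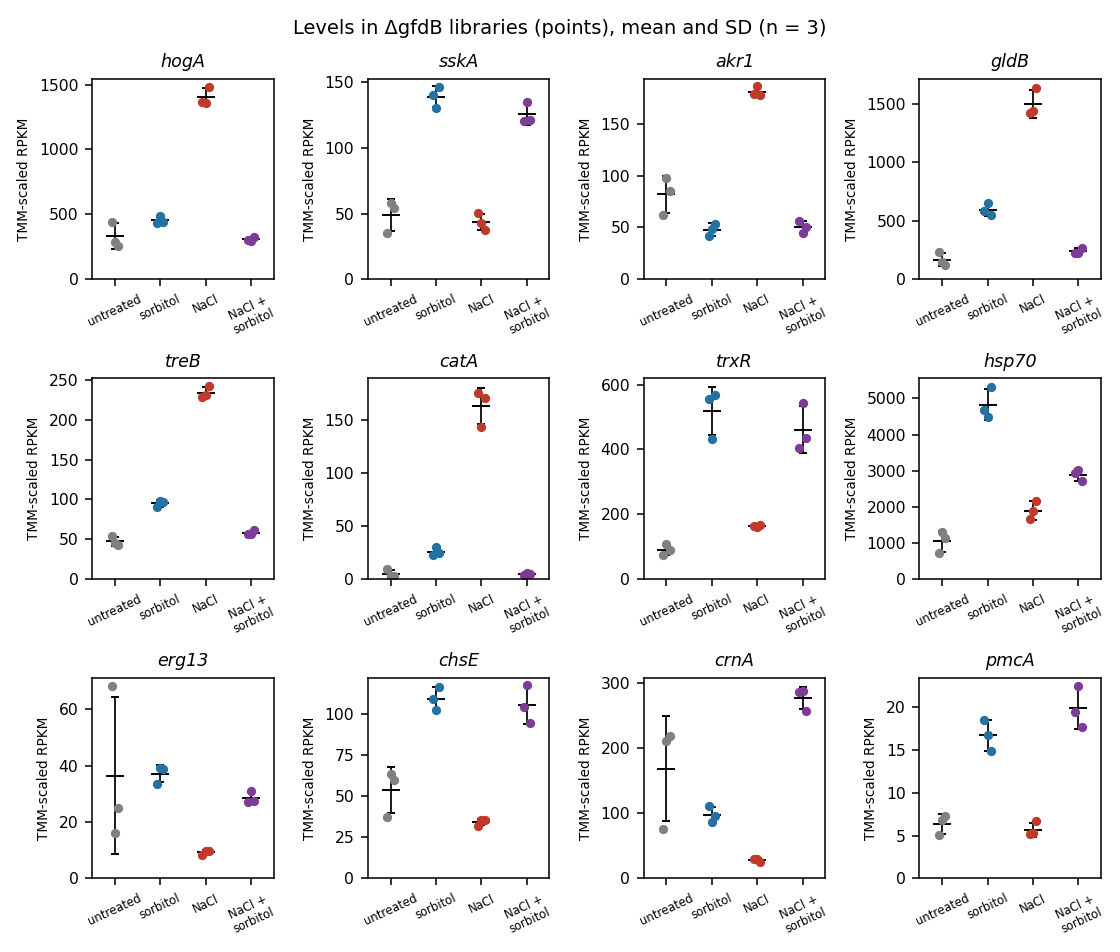
Levels of 12 genes in the 4 Δ*gfdB* groups, as TMM-scaled RPKM on linear axes from 0. Each point is a library, the bar is the mean and the whiskers the SD (n = 3). The NaCl libraries lie above the sorbitol libraries for *hogA*, *akr1*, *gldB*, *treB* and *catA*, and below them for the other genes.

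Oxidative stress genes did not share a direction. Of 33 tested members 6 were called higher under NaCl and 2 lower, with a median of 0.08 (−0.07 without TMM). *catA*, a catalase gene known from conidia, had 22.1, 30.1 and 23.9 RPKM in the sorbitol libraries and 176, 144 and 170.5 RPKM in the NaCl libraries. Its groups were far apart (log2 fold change 2.69, SE 0.33, adjusted p = 4.85e-07), and the combined treatment was near the untreated cultures, at 3.88 to 5.25 against 2.12 to 8.997 RPKM. The catalase-peroxidase gene *cpeA* (1.04), the glutathione peroxidase gene AN3255 (1.29), the glutathione transferase genes AN4905 (1.28) and AN10379 (1.23) and the putative peroxidase gene AN8395 (2.101) were also higher, the last 4 as annotated by the study. AN8395 rests on 1 to 4 reads per sorbitol library and 7 to 13 per NaCl library, and its call (adjusted p = 0.0345) was lost without sorbitol replicate 1 (adjusted p = 0.0579), sorbitol replicate 3 (0.164) or NaCl replicate 3 (0.106). *cpeA* fell below 2-fold without sorbitol replicate 2 (0.92), NaCl replicate 3 (0.95) or TMM scaling (0.90). In the other direction, *trxR*, the thioredoxin reductase gene, had 555, 433 and 569 RPKM in the sorbitol libraries and 164, 161 and 166 RPKM in the NaCl libraries. Every sorbitol library held more than 2-fold the level of any NaCl library (log2 fold change −1.67, SE 0.19, adjusted p = 1.49e-07). AN1252, with a predicted peroxiredoxin domain, was lower under NaCl as well (−1.32).

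Several developmental genes were among the largest differences. *ayg1*, named after a spore pigment gene of *A. fumigatus*, had 1 to 2 reads per sorbitol library and 12 to 15 per NaCl library (log2 fold change 3.34, SE 0.65, adjusted p = 1.65e-04), a ratio of summed reads of 10.8 (95% interval 3.89 to 41.4, exact, counting error only). The laccase gene of the green conidial pigment, *yA*, had 117.1, 118 and 121 RPKM in the sorbitol libraries and 256, 279 and 302 RPKM in the NaCl libraries (log2 fold change 1.23, SE 0.16, adjusted p = 1.09e-06). *medA*, which codes for a regulator of conidiophore form, was lower under NaCl, with 35.4, 53.4 and 45.4 RPKM in the sorbitol libraries and 9.98, 12.7 and 15.8 RPKM in the NaCl libraries (log2 fold change −1.80, SE 0.24, adjusted p = 1.26e-06). Of 19 tested genes of conidiation and spore pigment, 3 were called higher and 1 lower (median −0.35). The regulator genes *brlA* (−0.35) and *abaA* (−0.33) did not pass the test, and *wetA* had −1.44 with an adjusted p of 0.052. The level of *wetA* was very low, with means of 0.336 RPKM under sorbitol and 0.125 RPKM under NaCl. That of *abaA* was low as well (0.726 and 0.564 RPKM). The hydrophobin gene *rodA* had 90.5, 10.1 and 14.9 RPKM in the sorbitol libraries and 2.99, 4.59 and 13.4 RPKM in the NaCl libraries. Its groups overlapped although it was called (log2 fold change −2.42, SE 0.67, adjusted p = 0.00397), and without sorbitol replicate 1 its value was −0.83 with an adjusted p of 0.212. The 6 tested conidium markers of the 8 listed summed to 160 to 236 RPKM under sorbitol and 430 to 489 RPKM under NaCl, most of it from *yA* and *catA*. How far spores or conidiophores in the mycelium account for the values of such genes was not tested.

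Of 19 tested genes of sexual development and the velvet complex, 4 were called higher under NaCl and 1 lower (median 0.09, and −0.05 without TMM). The pheromone precursor gene *ppgA* had 24.2, 28.7 and 24.7 RPKM in the sorbitol libraries and 58.9, 61.1 and 71.2 RPKM in the NaCl libraries (log2 fold change 1.30, SE 0.11, adjusted p = 4.78e-09). The pheromone receptor gene *preA* (1.13), the blue light receptor gene *lreB* (1.21) and the mating type gene *MAT1* (2.58, from 2 to 3 reads per sorbitol library and 6 to 20 per NaCl library) were higher too. *preA* was below 2-fold without sorbitol replicate 3 and without TMM (both 0.99). The second receptor gene *preB* (0.50) and *gprD*, for another G protein-coupled receptor (0.47), passed the test below 2-fold, and the other mating type gene, *MAT2*, had 0.14 and did not pass. *esdC*, expressed early in sexual development, was the member called lower, with 584, 503 and 645 RPKM in the sorbitol libraries and 131, 144.8 and 197.9 RPKM in the NaCl libraries (log2 fold change −1.87, SE 0.15, adjusted p = 1.68e-09). Its untreated level was 685 to 749 RPKM, above all the NaCl and all the sorbitol libraries. Also lower under NaCl was *sclB*, a zinc cluster regulator gene of asexual development, with 32.3, 24.6 and 29.9 RPKM in the sorbitol libraries and 4.91, 4.93 and 3.94 RPKM in the NaCl libraries (log2 fold change −2.65, SE 0.28, adjusted p = 8.93e-08).

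The tyrosine breakdown genes *fahA* (fumarylacetoacetase), *hmgA* (homogentisate dioxygenase) and *hmgX*, which are neighbours in the RefSeq annotation, were higher under NaCl, at 1.50, 1.54 and 2.38. *hmgX* had 1.21, 1.51 and 1.71 RPKM in the sorbitol libraries and 3.25, 6.67 and 13.7 RPKM in the NaCl libraries. The NaCl libraries were uneven, with replicate 3 the highest, although none overlapped sorbitol (log2 fold change 2.38, SE 0.62, adjusted p = 0.00241). Without NaCl replicate 3 the adjusted p of *fahA* was 0.199 and that of *hmgA* 0.128, and without sorbitol replicate 2 they were 0.0683 and 0.0515. *fahA* also missed the threshold without sorbitol replicate 3 (adjusted p = 0.0502). *maiA*, the isomerase gene of the same route, had −0.11 and did not pass. These 4 genes were put together after their values had been seen.

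Of 20 names written for heat shock proteins and co-chaperones 15 matched no symbol, and the genes tested were lower under NaCl than under sorbitol. All 5 tested members were lower with an adjusted p under 0.05, as were 26.2% of all genes tested, 4 of them by over 2-fold, and the median was −1.24. *hsp70* had the highest level of the list, with 4691, 4478 and 5325 RPKM in the sorbitol libraries and 1646, 1882 and 2149 RPKM in the NaCl libraries. The groups did not overlap, and the untreated cultures had 708 to 1283 RPKM (log2 fold change −1.35, SE 0.17, adjusted p = 6.40e-07). The mitochondrial disaggregase gene *hsp78* had 537, 493 and 512 RPKM in the sorbitol libraries and 109.6, 119.9 and 164 RPKM in the NaCl libraries (log2 fold change −1.97, SE 0.15, adjusted p = 8.34e-10). *hsp60* (−1.24) and *hsp90* (−1.08) were also called, and the co-chaperone gene *sti1* had −0.94. Of 11 mitochondrial chaperone and import genes, a list added after values had been seen, *tim44* of the import motor (−1.23) joined *hsp60* and *hsp78*, and none was called higher. Chaperones of the endoplasmic reticulum differed less. None of 5 was called, and the calnexin gene *clxA* had −0.75 and *bipA* −0.28.

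The genes of sterol synthesis were divided. *erg13*, coding for HMG-CoA synthase at the entry of the mevalonate route, had 33.6, 39.03 and 38.8 RPKM in the sorbitol libraries and 8.44, 9.87 and 9.54 RPKM in the NaCl libraries, without overlap (log2 fold change −2.002, SE 0.31, adjusted p = 1.33e-05). The mevalonate kinase gene *erg12* (−1.44), the squalene epoxidase gene *erg1* (−1.25), the methyltransferase gene *erg6* (−1.25) and the desaturase gene *erg5* (−1.34) were lower under NaCl as well. The ketoreductase gene *erg27* was higher, with 17.5, 20.9 and 20.2 RPKM in the sorbitol libraries and 49.4, 47.9 and 48.0 RPKM in the NaCl libraries (log2 fold change 1.31, SE 0.11, adjusted p = 3.97e-09), and so was *erg4A* (1.13), which carries the name of the last reductase of the route. Without TMM *erg4A* had 0.98 and was not called. *hmg1*, named for HMG-CoA reductase, had −0.20 and did not pass. Over all 17 genes with such a symbol, a set completed after values had been seen, 2 were called higher and 5 lower (median −0.20).

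Of 17 tested cell wall genes 7 were called lower under NaCl and none higher, and the median was −0.69. Of the 48 names written for this list 29 matched no symbol. The alpha-1,3-glucan synthase gene *ags1* (AN3307) had 30.8, 34.1 and 35.4 RPKM in the sorbitol libraries and 9.21, 9.76 and 9.43 RPKM in the NaCl libraries, without overlap (log2 fold change −1.82, SE 0.15, adjusted p = 3.14e-09). The other such gene, *agsA*, had 8.54, 2.56 and 3.54 RPKM in the sorbitol libraries and 0.723, 1.19 and 1.37 RPKM in the NaCl libraries (log2 fold change −2.15, SE 0.35, adjusted p = 2.26e-05), with sorbitol replicate 1 well above the other libraries. *chsE* and *csmB*, neighbouring genes for chitin synthases with a myosin motor domain, were lower together. *chsE* had 109.03, 101.99 and 116.3 RPKM in the sorbitol libraries and 32.03, 35.4 and 35.6 RPKM in the NaCl libraries (log2 fold change −1.67, SE 0.16, adjusted p = 2.29e-08), and *csmB* had −1.37. *gel1*, for a glucanosyltransferase (−1.15), *chs3*, for a chitin synthase (−1.03), and *rlmA*, for a transcription factor of cell wall integrity (−1.32), were also called. For *chsE* the combined treatment (94.5 to 117.4 RPKM) overlapped sorbitol alone, and the untreated level was 37.5 to 63.2 RPKM. Septins, which form rings at septa and hyphal tips, pointed the same way. All 5 septin genes, grouped after values had been seen, were lower with an adjusted p under 0.05, as were 26.2% of all genes tested. *aspB* (−1.12) and *aspD* (−1.05) were lower by over 2-fold.

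In ion transport, both called genes were those of calcium pumps. All tested members but the proton pump gene *pmaA* belong to calcium transport or signalling. *pmcA* had 18.5, 16.8 and 14.8 RPKM in the sorbitol libraries and 5.16, 5.29 and 6.65 RPKM in the NaCl libraries (log2 fold change −1.55, SE 0.13, adjusted p = 4.02e-09), and *pmcB* had 17.02, 15.9 and 15.97 RPKM in the sorbitol libraries and 5.24, 6.14 and 5.66 RPKM in the NaCl libraries (log2 fold change −1.52, SE 0.12, adjusted p = 2.02e-09). The sorbitol libraries were higher for both without overlap. Another pump gene of the family, *pmcC*, had −0.08 and did not pass. *midA* of a calcium channel (−0.81) and *crzA*, the calcineurin-responsive factor gene (−0.74), passed below 2-fold, whereas the plasma membrane proton pump gene *pmaA* had −0.24 and did not. Of 10 tested members none was called higher (median −0.48). No sodium or potassium transporter gene is among the tested members. Of the 36 names written for this list 25 matched no symbol, and these genes are not analysed here.

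Genes of nitrate assimilation and sulphate reduction were among those lower under NaCl. *crnA*, the nitrate transporter gene, had 111, 86.0 and 95.4 RPKM in the sorbitol libraries and 29.1, 29.5 and 25.3 RPKM in the NaCl libraries, without overlap (log2 fold change −1.80, SE 0.27, adjusted p = 7.58e-06). The nitrate reductase gene *niaD* had 296, 294 and 309 RPKM in the sorbitol libraries and 110.3, 109.5 and 117.5 RPKM in the NaCl libraries (log2 fold change −1.42, SE 0.11, adjusted p = 7.56e-10). The pathway's activator gene *nirA* had −1.01, close to the limit, and the nitrite reductase gene *niiA* −0.76, under 2-fold. The call of *nirA* was lost with DESeq2 and with median-of-ratios scaling (both −0.99). Both stressors lay below the combined treatment for *crnA*, which reached 257 to 288 RPKM. Of 14 nitrogen genes 3 were called lower and none higher (median −0.18). *met16*, of sulphate reduction, was lower at −1.48, and the ATP sulphurylase gene *sC* had −0.81.

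Of 17 tested iron and zinc genes 3 were called lower under NaCl and none higher. At any fold, 10 were lower with an adjusted p under 0.05, against 26.2% of all genes, and 1 was higher, *hapE* of the CCAAT-binding complex at 0.42 (median −0.74). *hapX*, for the regulator of iron starvation, had 9.26, 9.85 and 10.8 RPKM in the sorbitol libraries and 5.28, 3.85 and 3.46 RPKM in the NaCl libraries (log2 fold change −1.25, SE 0.21, adjusted p = 2.66e-05). The zinc transporter gene *zrfB* was lower at −1.11. *sidI* of siderophore synthesis had −1.81, from 15 to 24 reads per sorbitol library and 2 to 10 per NaCl library. Its adjusted p of 0.0332 rose to 0.0582 without sorbitol replicate 1, to 0.0804 without sorbitol replicate 2, to 0.102 without NaCl replicate 2 and to 0.107 without NaCl replicate 3.

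Other lists moved little or below the 2-fold limit. The proteasome had no member called, yet 22 of 24 tested members were higher under NaCl at any fold with an adjusted p under 0.05, against 28.3% of all genes (median 0.54, highest 0.89 for *pre9*). Of 36 mitochondrial ribosome genes, 2 were called lower (median −0.31). At any fold 20 were lower with an adjusted p under 0.05, and 26 without TMM, against 26.2% of all genes with TMM. Oxidative phosphorylation (26 genes, median −0.19), cytoplasmic translation (34 genes, median 0.14) and tRNA aminoacylation (22 genes, median 0.05) had no gene called. At any fold with an adjusted p under 0.05, 11 oxidative phosphorylation genes were lower and 2 higher (17 and 1 without TMM). For translation 13 were higher and 3 lower (8 and 5 without TMM), and for tRNA aminoacylation 5 and 4. The shares of all genes are 28.3% higher and 26.2% lower. Of 19 genes of DNA replication initiation 2 were called lower (median −0.21). These 6 lists are the study's own terms, chosen on how THS30 responded to sorbitol, and are no independent evidence of a direction. Without TMM scaling 21 of the 24 proteasome genes passed, and the small medians of translation and tRNA aminoacylation changed sign (−0.0047 and −0.10). Of 6 genes for acetate use and gluconeogenesis 1 was called higher, *coaT* for a CoA transferase (1.50), with a median of 0.61.

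The remaining lists held few tested members, since most names written for them matched no symbol. Names also went unmatched in lists given above, such as 28 of 42 for nitrogen assimilation and 21 of 24 for sulphur assimilation. For acetate use and gluconeogenesis 24 of 31 were unmatched, and for endoplasmic reticulum folding 11 of 16. Of 12 genes of amino acid and vitamin synthesis *ilv3* was called higher (1.56) and none lower. Of 8 autophagy and proteolysis genes the metalloprotease gene *mep20* was called higher (1.11), with an adjusted p of 0.138 without sorbitol replicate 2, 0.0867 without sorbitol replicate 3 and 0.0601 without NaCl replicate 2. Without TMM it had 0.97, below 2-fold. The excision repair gene *rad7* (1.31) was called higher among 10 genes of replication and cell cycle, and the cyclin gene *nimE* (−0.83) and the kinase gene *nimX* (−0.64) were lower below 2-fold. Of 8 genes of carbon use AN0443 was called lower (−1.02), and the repressor gene *creA* had 0.18. The pH regulator gene *pacC* had −0.01.

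**Figure D2:**
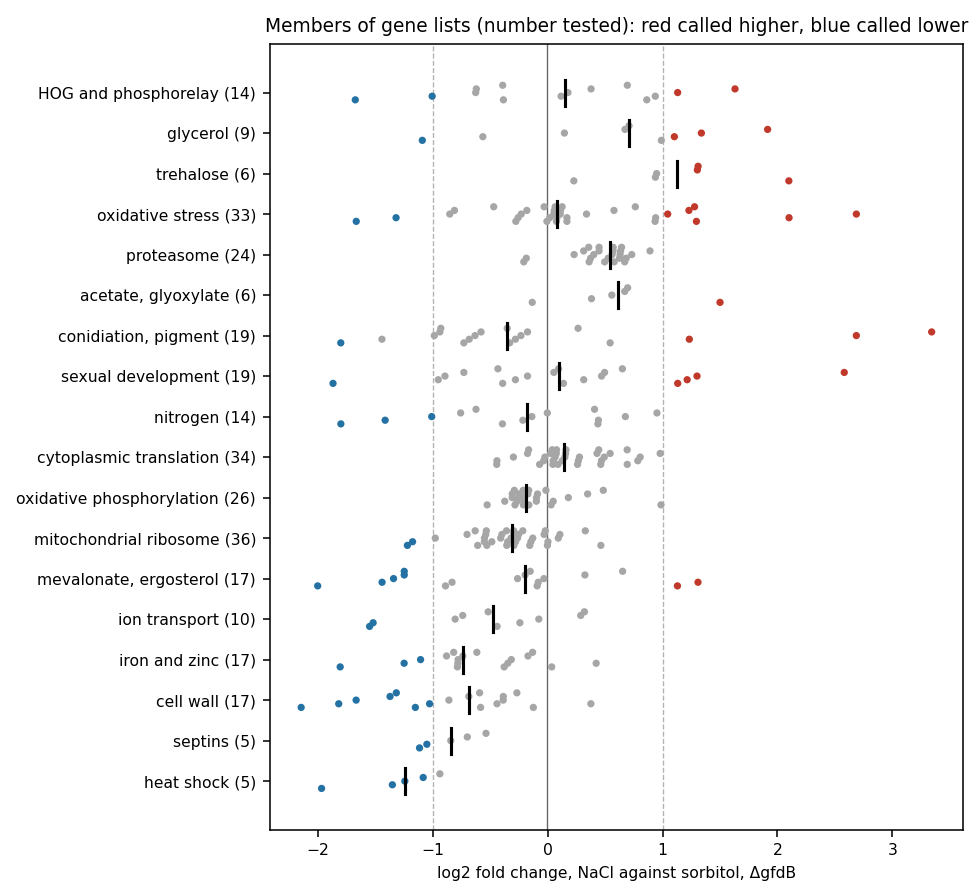
Log2 fold changes (NaCl against sorbitol, Δ*gfdB*) of the members of 18 gene lists, with the number tested in parentheses. Each point is a gene, coloured where called, the black bar is the list's median, the dashed lines mark 2-fold and the grey line the median of all genes. All points of the septin and heat shock lists lie below 0 and all those of the trehalose list above it.

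Among the other named genes with the largest differences, *pldA*, a phospholipase D gene, had 67.9, 70.6 and 71.0 RPKM in the sorbitol libraries and 217, 221 and 256 RPKM in the NaCl libraries (log2 fold change 1.73, SE 0.17, adjusted p = 3.37e-08). *ish1*, named after a stress response gene of fission yeast, had 426, 488 and 519 RPKM in the sorbitol libraries and 1214, 1307 and 1612 RPKM in the NaCl libraries (log2 fold change 1.53, SE 0.18, adjusted p = 3.73e-07). *ppe1* (1.61), *ugd2* (1.73) and *nfr1* (1.51) were higher under NaCl too. Higher under sorbitol were *fhdA* (−1.83), *mrh4* (−1.69), which bears the name of a mitochondrial RNA helicase of yeast, *zfpA* (−1.63) and *rsmA*, for a bZIP regulator of secondary metabolism (−1.57). None of these genes had overlapping libraries.

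Genes without a symbol went further. AN2841 had 4 reads over the sorbitol libraries and 84 over the NaCl libraries, a ratio of 22.6 (95% interval 8.51 to 84.9), and AN9164 had 1 and 39, a ratio of 42 (95% interval 7.11 to 1701). In the other direction AN4606 had 43 reads over the sorbitol libraries and 2 over the NaCl libraries, a ratio of 20.0 in favour of sorbitol (95% interval 5.20 to 170.1). These intervals are exact and cover counting error only. AN2665 was better covered, with 45.6, 49.99 and 44.9 RPKM in the sorbitol libraries and 4.11, 2.98 and 1.78 RPKM in the NaCl libraries (log2 fold change −3.98, SE 0.34, adjusted p = 3.84e-09). Its level under NaCl overlapped that of the untreated cultures (2.55 to 2.94 RPKM). AN2666, its neighbour in the RefSeq annotation, had −3.84.

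Called genes often lay side by side. In the order of the RefSeq annotation, 8079 neighbouring pairs had both genes tested. Of the 1519 neighbours of genes called higher under NaCl, 470 (30.9%) were called higher themselves, against 9.48% of all genes tested. Of the 1049 positions beside genes called lower, 186 (17.7%, from 93 pairs) held a gene called lower, against 6.68%. Examples are *ugd2* and *ayg1*, *fahA*, *hmgA* and *hmgX*, and *chsE* and *csmB*. Neighbours can overlap in the annotation, and whether reads were counted by strand is not stated, so shared reads cannot be told apart from separate expression for such pairs.

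The reference strain gave the same comparison in libraries of its own. In THS30, 781 genes were higher under NaCl than under sorbitol and 583 lower, 8.22% and 6.14% of the genes tested. Of the genes called higher in Δ*gfdB*, 665 were called higher in THS30, which is 73.9% of the Δ*gfdB* list and 85.1% of the THS30 list. Of those called lower, 320 were shared, 50.5% and 54.9% of the lists. No gene was called in opposite directions. Below 2-fold opposite signs did occur, as for AN8809, at −0.78 in Δ*gfdB* and 0.73 in THS30 with an adjusted p under 0.05 in both. The log2 fold changes of the strains had r = 0.873 across genes, which are not independent replicates. The genes called higher in Δ*gfdB* had a median of 1.44 there and 1.28 in THS30, and those called lower −1.29 and −1.02. As these genes were chosen on the Δ*gfdB* values, the smaller THS30 medians are a description only. Without TMM scaling THS30 had 538 genes higher and 1087 lower.

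**Figure D3:**
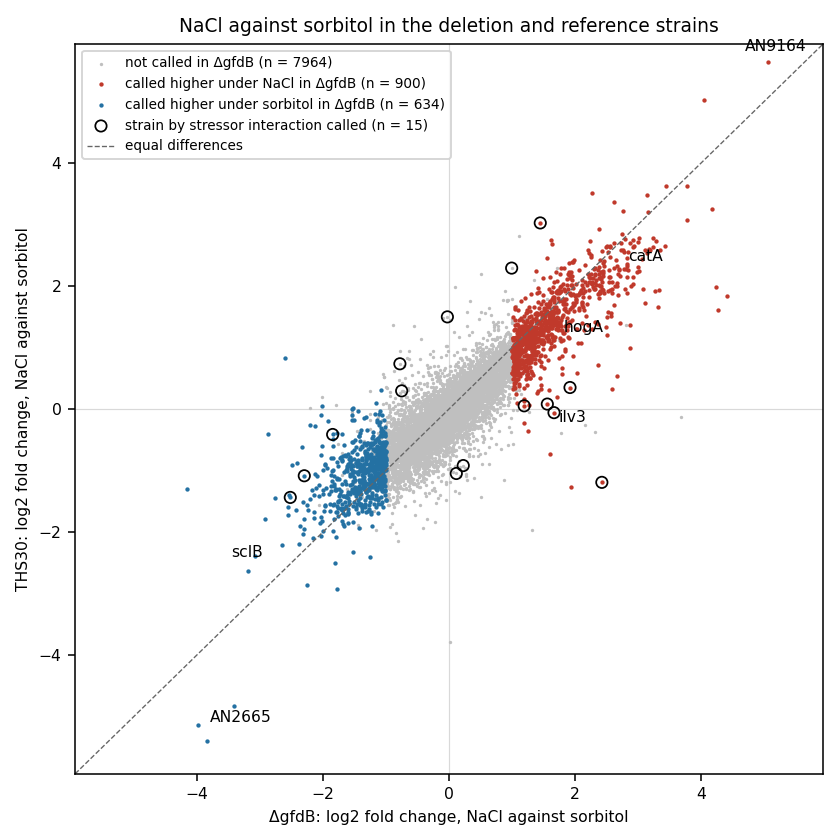
Log2 fold changes of NaCl against sorbitol for 9498 genes in Δ*gfdB* (horizontal axis) and THS30 (vertical axis), with the genes called in Δ*gfdB* coloured and the 15 genes called for the interaction circled. Most coloured points lie along the dashed line of equal differences, and *ilv3* lies near 0 on the THS30 axis.

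Whether the difference between the stressors itself differed between the strains was tested as an interaction. It was called for 15 genes (0.158% of those tested). The log2 fold change was above that of THS30 for 7 of them (0.0737%) and below it for 8 (0.0842%). At any fold, 65 genes (0.684%) had an adjusted p under 0.05, and 1401 (14.8%) an unadjusted p under 0.05. The number depends on a library, as 40 genes were called without sorbitol replicate 2 and 7 without sorbitol replicate 3. A single gene with a symbol was among them, *ilv3*, named for the dihydroxy-acid dehydratase of branched-chain amino acid synthesis. It had 94.3, 73.4 and 68.9 RPKM in the sorbitol libraries and 182, 199 and 315 RPKM in the NaCl libraries in Δ*gfdB*. In THS30 it had 75.4, 73.6 and 82.3 RPKM under sorbitol and 90.9, 74.9 and 78.2 RPKM under NaCl. The 3 NaCl libraries of Δ*gfdB* thus stood above all others, and the interaction was 1.48 (SE 0.24, adjusted p = 0.00487). The call held under all 12 alternatives tried.

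Of the 14 other genes, AN7671 and AN5985 resembled *ilv3* and were chosen after their values had been seen. AN7671 had 8.73, 7.01 and 5.09 RPKM in the sorbitol libraries and 24.1, 21.8 and 31.2 RPKM in the NaCl libraries in Δ*gfdB*, against 9.76 to 11.3 and 12.2 to 14.3 RPKM in THS30. Its interaction was 1.57 (SE 0.22, adjusted p = 9.14e-04). AN5985 had 7.37, 7.72 and 5.83 RPKM in the sorbitol libraries and 16.4, 20.9 and 28.6 RPKM in the NaCl libraries, against 7.24 to 10.7 and 6.22 to 9.60 RPKM in THS30, where the groups overlapped. AN5172 was higher under sorbitol in both strains, by a larger factor in Δ*gfdB* (−2.30) than in THS30 (−1.09). AN3117 was higher under NaCl in both, at 1.44 in Δ*gfdB* and 3.02 in THS30. For *trxR* the values were −1.67 and −0.58, and the interaction of −1.08 just missed the threshold (adjusted p = 0.0501). The interactions of *hogA*, *akr1*, *gldB* and *catA* were 0.09, −0.21, 0.33 and 0.41, none of which passed.

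**Figure D4:**
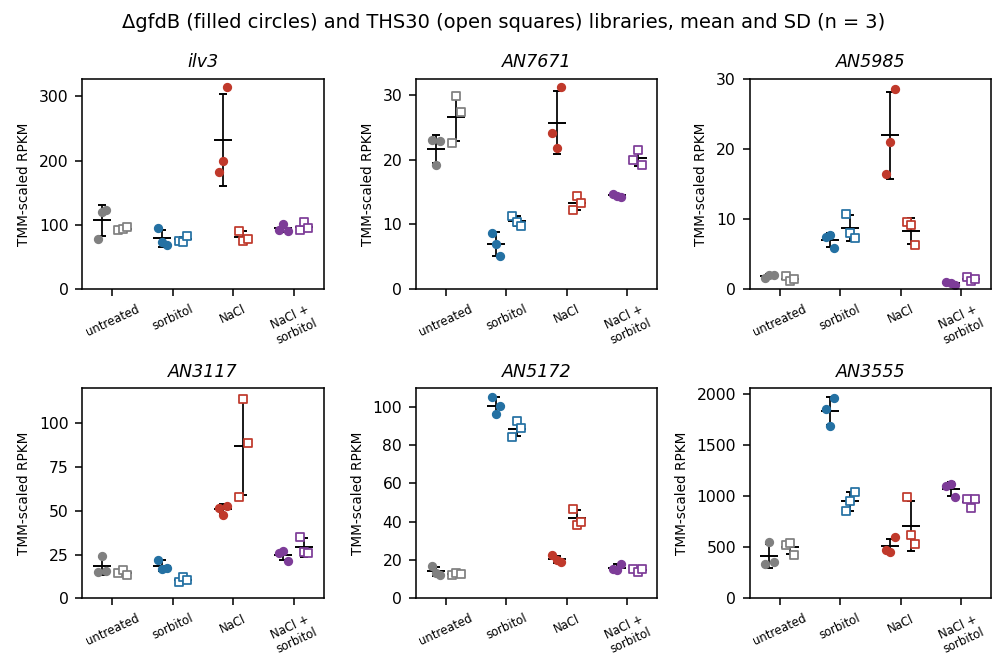
Levels of 6 genes called for the interaction in Δ*gfdB* (filled circles) and THS30 (open squares) libraries of the 4 conditions, as TMM-scaled RPKM, with mean and SD (n = 3). For *ilv3*, AN7671 and AN5985 the Δ*gfdB* NaCl libraries lie above the THS30 NaCl libraries, and for AN5172 they lie below.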

How the data were processed

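Poly(A) RNA of mycelium was sequenced by the authors as single-end reads. Reads were aligned with HISAT2 2.1.0 (submitters' processing notes) and the deposited read counts per gene were made with featureCounts. The handling of strand and of multiply matching reads is not given in the sources used here. The deposited RPKM values were computed by the authors from these counts, gene length and library totals, and served here only in an alternative. Doses (sorbitol at 2 M, NaCl at 1 M) follow the paper, since the series record has them the other way round. Columns of other samples were not used.

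The counts of all 24 *A. nidulans* libraries (8 groups of 3, totals of 11438978 to 53348830 reads) were fitted in a single model with edgeR 4.0.16 in R 4.3.3 (TMM, filterByExpr, estimateDisp, glmQLFit, glmQLFTest). Of 10988 genes 9498 passed the filter. P-values were adjusted by Benjamini-Hochberg over all of them, and genes were called at an adjusted p under 0.05 and over 2-fold. SEs were taken as |log2 fold change| / √F. Counts were also simulated for all 24 libraries (9461 genes). A small set of genes was changed in the Δ*gfdB* NaCl libraries, evenly up and down, and the other genes there were given the sorbitol means. Of 99 genes changed by 1.5 on the log2 scale 94.9% were called, and of 100 changed by 2, 96.0%, with 1 false call. Far more genes differed in the data, so the simulation cannot show how the calls depend on scaling.

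The 15 called genes with a symbol and without overlap at each end, up to 2 IDs without a symbol, the members of gene lists and genes with an interaction are named. Members and lists were chosen with earlier results of these data known. Symbols (795 IDs, 16 of them from the study) come from RefSeq assembly ASM1142v1, which matched 10037 IDs and whose coordinates were used only for the order of genes. The alternatives used limma 3.58.1 on log2(RPKM + 1) and DESeq2 1.42.0, other scalings and filters, the 2 groups alone, a replicate block and each library left out.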

Additional observations from a re-analysis of the deposited data

Results flagged for a closer look

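For 15 genes the NaCl against sorbitol difference was itself unequal in Δ*gfdB* and THS30 by the interaction test (edgeR, adjusted p under 0.05 and over 2-fold). Values are the log2 fold change in Δ*gfdB* minus that in THS30, with sign. Positive were the aspartate tRNA gene AN_tD(GUC)1 (3.62), AN5985 (1.73), AN7671 (1.57), *ilv3* (1.48), AN11064 (1.16), AN3825 (1.15) and AN9383 (1.14). Negative were AN3117 (−1.58), AN9005 (−1.52), AN8809 (−1.51), AN3555 (−1.43), AN5540 (−1.30), AN5172 (−1.21), AN4922 (−1.08) and AN2305 (−1.05). In AN3555, AN5172 and AN4922 the negative value means a larger difference in favour of sorbitol in Δ*gfdB* (−1.85, −2.30 and −2.52) than in THS30 (−0.42, −1.09 and −1.44). AN4922 is the neighbour of *erg13* in the RefSeq annotation. The calls were not equally steady over the 12 alternatives run for the interaction. AN11064 was called in 3 of them, AN4922 in 5, the tRNA gene in 6, and AN2305, AN9383 and AN3825 in 7 each. AN3555 and AN5540 were called in 11 each, and the remaining genes in all 12. The tRNA gene rests on 2 reads in each Δ*gfdB* sorbitol library and 10 to 11 in each NaCl library, and its reads may be shared with near-identical copies, so its value is uncertain. AN9005 and AN8809 were lower in Δ*gfdB* than in THS30 under each stressor. AN8809 also changed direction, at −0.78 in Δ*gfdB* and 0.73 in THS30. AN9005 had 1.06 to 1.35 RPKM over the 6 Δ*gfdB* libraries, against 7.78 to 8.41 RPKM under sorbitol and 19.6 to 25.5 RPKM under NaCl in THS30.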

How the results depend on the processing

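The counts for NaCl against sorbitol in Δ*gfdB* stayed within 1.5 times of those reported under the alternatives run, with 1 exception: limma on log2(RPKM + 1) gave 370 genes lower. Leaving out a library gave 1444 to 1616 genes, 821 to 932 of them higher and 610 to 795 lower. In THS30, no TMM scaling gave 1087 genes lower. The interaction count was the least steady. It was 35 genes (30 lower) with only the groups compared, 26 (18 lower) with DESeq2, and 13 genes higher without TMM. With the replicate block it was 13 genes, 4 of them higher, and the block gave 1535 genes in the main comparison and 1352 in THS30. Same-numbered libraries did not deviate together in Δ*gfdB* (r = −0.051, −0.020 and 0.028) and not in every pair of THS30 (r = −0.004, 0.111 and 0.304), so the numbers were not taken as pairs. Leaving out a library gave 7 to 40 interaction genes, 3 to 9 higher and 4 to 33 lower, and 7 of the 15 genes were called under all 12 alternatives. Of 84 named genes, 62 were called under all 13 alternatives, none changed direction, and the others fell short in at least 1, most often on log2(RPKM + 1), which compresses low values. Against the untreated cultures, 3407 genes were called under NaCl and 2797 under sorbitol. Without untreated replicate 1, an alternative chosen after seeing the data, they were 3543 and 2965. Calls near 2-fold were lost without sorbitol replicate 3 for *nirA* (−0.99), *aspD* (−0.97) and *gel1* (−0.99), without sorbitol replicate 1 for *nirA* (−0.96) and AN0443 (−0.93), without NaCl replicate 2 for *chs3* (−0.92) and AN0443 (−0.98), and without NaCl replicate 3 for *nirA* (−0.94) and *aspD* (−0.99). Genes with few reads, such as *ayg1*, *MAT1* and *sidI*, have wide errors.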
